A study of Homo sapiens with 9 samples.

Results

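MYC and the stretch of chromosome 8 that lies downstream of it were described here through every peak of 5 CUT&RUN peak lists from DND-41, an established human cell line of T-cell acute lymphoblastic leukemia (its identity was not checked here by markers). The members were all peaks between positions 128500000 and 131000000 of chromosome 8 (hg19), a window of 2.5 Mb that holds MYC (128748315 to 128753680), PVT1 and the gene-poor region beyond. They numbered 459 of the 183634 peaks of all 5 lists: 159 H3K27ac peaks after 100 nM ACBI-1, 256 H3K27ac peaks after its vehicle DMSO, 29 RUNX1 peaks, 9 BRG1 peaks and 6 H3K4me3 peaks. ACBI-1 is a degrader of the SWI/SNF ATPases SMARCA2 and SMARCA4 (BRG1) and of PBRM1. The RUNX1, BRG1 and H3K4me3 libraries carry no treatment label, so the factor and H3K4me3 maps say nothing of where these lay after the degrader. With 1 library for each target and condition, nothing here was replicated and no test was made. The lists hold positions without signal and the read depth is unknown, so a peak called in one library and not in the other may be weaker rather than absent. With bulk cells, loss of the mark in some cells and weaker mark in all of them cannot be told apart.

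MYC encodes a transcription factor that drives growth and proliferation, and it is a main target of NOTCH1 in T-cell leukemia. PVT1 is a long noncoding RNA gene next to MYC, whose body is known to hold regulatory elements. Much of the control of MYC comes from enhancers far downstream, which differ between tissues: a NOTCH-responsive enhancer acts on MYC in T cells and T-cell leukemia, and a cluster of BRG1-dependent enhancers still farther away acts in acute myeloid leukemia. H3K27ac marks active enhancers and promoters, H3K4me3 marks mainly promoters, RUNX1 is a sequence-specific factor of the blood lineages, and BRG1 is the motor of SWI/SNF chromatin remodeling complexes.

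No annotation of hg19 was used, so peaks are given by their distance from the start of MYC (position 128748315), measured from the peak's centre and positive downstream. RefSeq's gene order in GRCh38 lists 0 genes between MYC and PVT1. It lists 0 protein-coding genes between MYC and GSDMC, with 11 long noncoding RNA genes, 6 microRNA genes and 4 pseudogenes in that interval. The limits of PVT1 were not placed on the peaks.

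Within the window, acetylation beyond the MYC promoter lay only downstream. The window reaches much less far upstream of MYC than downstream, and sequence farther upstream was not described here. Neither H3K27ac list had a peak in the 246.6 kb between the upstream edge of the window and the MYC promoter, nor did RUNX1 or BRG1 outside the promoter itself. Downstream, H3K27ac peaks fell into a few dense stretches: a tract from 58.1 to 368.8 kb, a block from 1191.8 to 1541.1 kb that holds the NOTCH-responsive enhancer (near 130.18 Mb, 1431.7 kb from MYC), and a smaller block from 1772.9 to 1868.0 kb. These stretches are the peaks of both H3K27ac lists joined across gaps of up to 10 kb, which gave 39 clusters in all. The 3 largest held 90.5% of the H3K27ac-covered length in ACBI-1 and 79.99% in DMSO.

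As a whole, the window lost about as many peaks as DMSO peaks of its widths did elsewhere. Of its 256 DMSO H3K27ac peaks, 139 had no overlapping ACBI-1 peak (54.3%, exact 95% interval 47.98 to 60.5, counting error only) and are called lost. Over all sequences 59.1% of DMSO peaks were lost, and DMSO peaks of the same widths as those in the window were lost in 54.4% of cases. Of the 159 ACBI-1 peaks, 20 had no overlapping DMSO peak (12.6%, 7.86 to 18.8) and are called gained, against 21.4% over all sequences. The H3K27ac-covered length was 281.3 kb in ACBI-1 and 457.7 kb in DMSO, with median peak widths of 861 bp in ACBI-1 and 932.5 bp in DMSO. That ratio of 0.615 stood beside 0.470 for the rest of chromosome 8 and 0.556 for all sequences outside the window. The genome was also cut into stretches of 2.5 Mb, of which 669 had 50 kb or more of H3K27ac in DMSO. The quartiles of their ratio were 0.445 and 0.622, 179 had a higher ratio than the window, and 31 held more DMSO H3K27ac.

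Within the window the share of lost peaks varied along the distance from MYC, though not evenly. From 50 to 500 kb downstream, 20 of 86 DMSO peaks were lost (23.3%, 14.8 to 33.6), where peaks of these widths were lost in 47.9% of cases over all sequences. Beyond 500 kb, 118 of 168 were lost (70.2%, 62.7 to 77.0), where the same widths gave 58.1%. These intervals take peaks as independent, which neighbours are not, and make no test between the parts. The rates for widths do not account for how densely peaks lie, and an overlap of 1 bp is met more easily where they are dense. ACBI-1 peaks covered 29.6% of the length from 50 to 500 kb and 8.25% beyond 500 kb. Whether this bears on the shares lost was not tested. Covered length was 133.2 kb in ACBI-1 and 152.9 kb in DMSO from 50 to 500 kb, a ratio of 0.871, and 144.6 kb in ACBI-1 and 297.7 kb in DMSO beyond, a ratio of 0.486. The number of peaks was 81 in ACBI-1 and 86 in DMSO in the nearer part, and 75 in ACBI-1 and 168 in DMSO in the farther part. The ratio did not follow distance throughout: it was 0.476 in the 50 kb nearest MYC, with 2.6 kb in ACBI-1 and 5.4 kb in DMSO, 0.548 from 250 to 500 kb and 0.621 from 1250 to 1500 kb. The parts below and above 500 kb were set side by side after the values were seen.

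**Figure D1:**
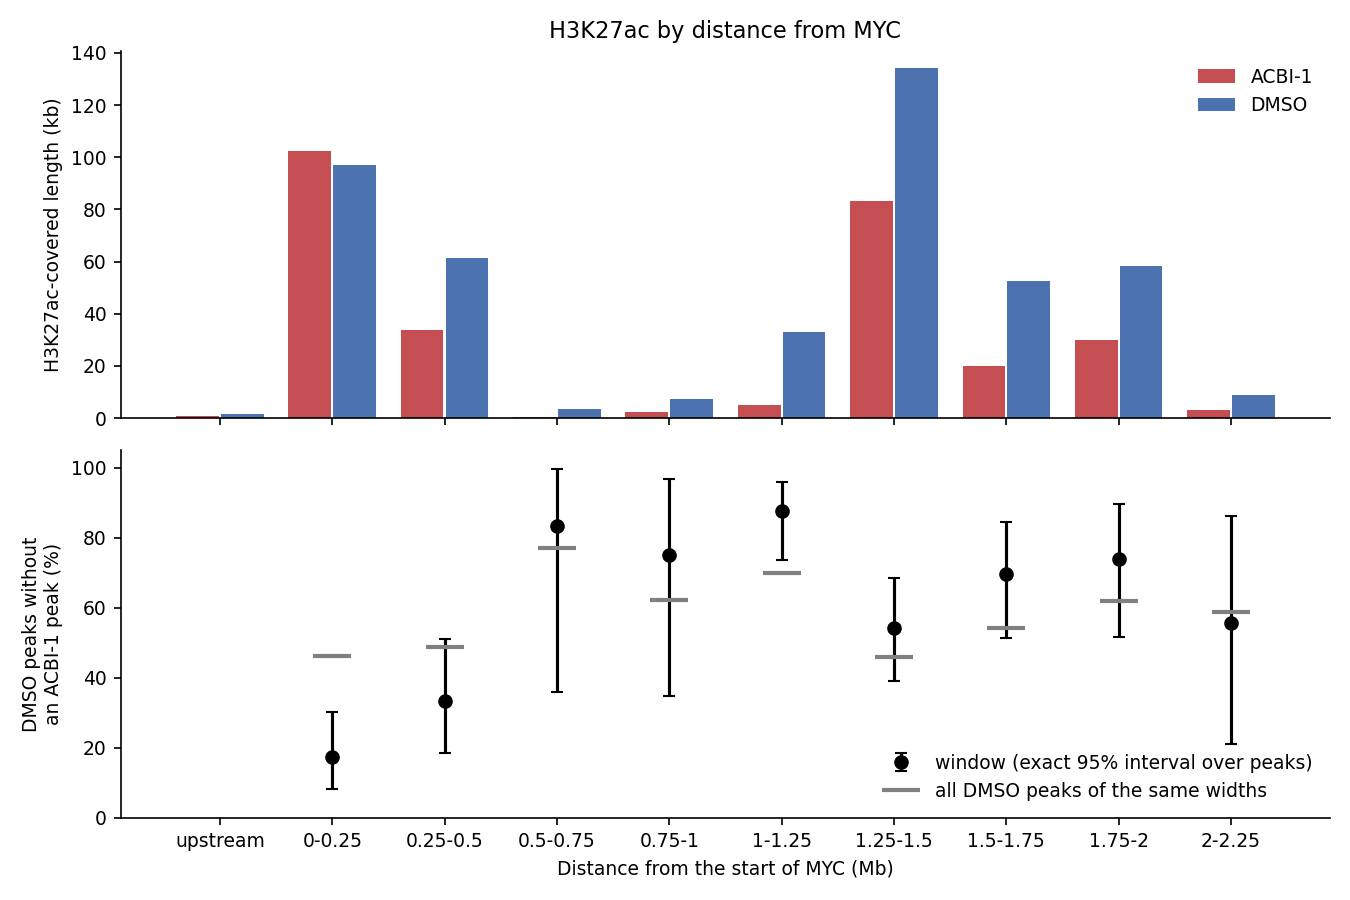
Upper panel: H3K27ac-covered length (kb) in intervals of 250 kb from the start of MYC, ACBI-1 left of DMSO. Lower panel: the share of DMSO peaks without an ACBI-1 peak with its exact 95% interval over peaks (points; the interval upstream of MYC has no DMSO peak centre), and the share for all DMSO peaks of the same widths (gray bars). The first interval had 102.2 kb in ACBI-1 and 97.0 kb in DMSO, and the interval from 1 Mb on had 5.0 kb in ACBI-1 and 32.9 kb in DMSO.

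At MYC itself, the acetylated domain over the promoter was called in pieces after ACBI-1. In ACBI-1 it consisted of peaks of 861 bp (128746633 to 128747493), 2366 bp (128748203 to 128750568) and 309 bp (128751247 to 128751555). In DMSO it was a single peak of 5443 bp (128746577 to 128752019). The ACBI-1 peaks covered 3536 bp of it, or 65.0%, and the middle one begins just before the start of the gene. A second DMSO peak of 1680 bp just past the gene (128754073 to 128755752) had no ACBI-1 peak. The widest H3K4me3 peak of the window lay here and measured 5450 bp (128747106 to 128752555), with smaller ones of 300 and 211 bp at its sides. The 211 bp peak lay in neither H3K27ac list.

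RUNX1 had 4 peaks at the MYC promoter. They measured 190, 181, 177 and 516 bp and were centred between -1.7 and 1.9 kb. Of these, the 177 and 516 bp peaks lay wholly in H3K27ac in both conditions. The 181 bp peak lay wholly in DMSO H3K27ac and 150 bp outside the nearest ACBI-1 peak, in the gap that opens between the pieces. ACBI-1 H3K27ac covered 61 bp and DMSO H3K27ac 117 bp of the 190 bp peak. BRG1 had 1 peak here, of 150 bp (128748531 to 128748680), inside H3K27ac in both conditions and H3K4me3, and next to RUNX1 without overlapping it.

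The tract that begins 58.1 kb downstream of MYC held nearly as many peaks after ACBI-1 as after DMSO. There were 81 peaks in ACBI-1 and 84 in DMSO, which covered 133.2 kb in ACBI-1 and 151.5 kb in DMSO of its 310.7 kb. Of the DMSO peaks 18 were lost, where 39.8 would be lost at the rates of all DMSO peaks of those widths. Those rates do not account for density, and ACBI-1 peaks covered 42.9% of the tract's length. Of the ACBI-1 peaks 13 were gained. The base pairs matched less well than the peaks: ACBI-1 peaks covered 62.9% of the DMSO-acetylated length, and 71.6% of the ACBI-1-acetylated length lay in DMSO peaks.

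This tract opened with an H3K4me3 peak of 2603 bp (128806537 to 128809139), the first beyond MYC. H3K27ac covered 2579 bp of it in ACBI-1 and 2332 bp in DMSO, within peaks of 2686 bp in ACBI-1 and 2332 bp in DMSO. PVT1 is the next gene in RefSeq's order, but whether this peak is a PVT1 promoter was not determined. No RUNX1 or BRG1 peak overlapped it.

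Inside the tract, covered length up to 250 kb from MYC was 99.6 kb in ACBI-1 and 91.6 kb in DMSO. Both conditions had 50 peaks there. In ACBI-1 11 were gained (22.0%, 11.5 to 36.0), near the 21.4% over all sequences. From DMSO 8 were lost, where 23.6 would be lost at the rates for their widths. Where exactly 1 ACBI-1 peak met exactly 1 DMSO peak, the ACBI-1 peak was the narrower in 6 of 19 pairs (31.6%, 12.6 to 56.6), against 74.5% (74.0 to 75.1) of such pairs over all sequences. In the rest of the tract the ACBI-1 peak was the narrower in 11 of 12 pairs (91.7%, 61.5 to 99.8), an interval that holds the 74.5%. Covered length there was 33.6 kb in ACBI-1 and 59.8 kb in DMSO. There 10 of 34 DMSO peaks were lost, also below the 16.1 at the rates for their widths. Of 1981 stretches of 250 kb outside the window with at least 20 kb of DMSO H3K27ac, 28 (1.41%) had a ratio as high as the 1.05 of the first 250 kb downstream of MYC, which include the peaks at the gene. This interval and the split of the tract were chosen after their values were seen.

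**Figure D2:**
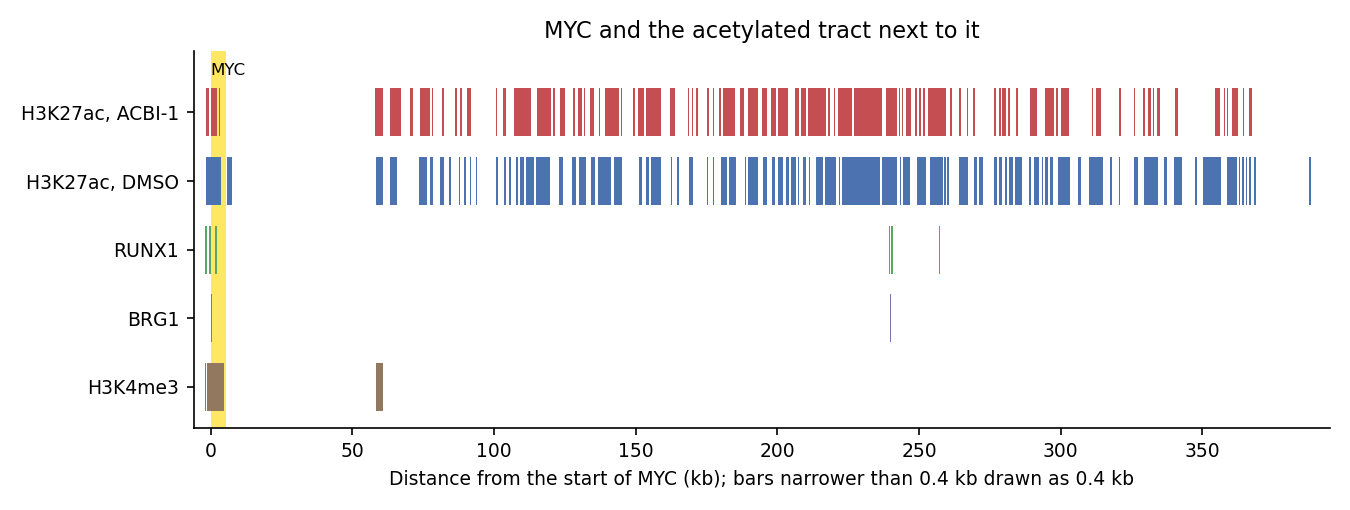
Peaks of the 5 lists from MYC through the adjacent tract, by distance from the start of MYC (kb); the gold band is MYC. The single DMSO peak over MYC is drawn in 3 pieces in ACBI-1. In the tract the H3K27ac rows are similarly dense up to about 250 kb, though their peaks match only in part. The only BRG1 peak of the tract is at 239.8 kb.

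Factor peaks were few in this acetylated tract: 3 RUNX1 peaks and 1 BRG1 peak. The BRG1 peak of 394 bp (128987938 to 128988331) at 239.8 kb overlapped a RUNX1 peak of 195 bp by 166 bp, and a second RUNX1 peak of 175 bp lay 240.5 kb from MYC. All 3 sat in an ACBI-1 H3K27ac peak of 3858 bp (128986519 to 128990376) and a DMSO peak of 5125 bp (128985377 to 128990501). The third RUNX1 peak, of 405 bp at 257.2 kb, sat in H3K27ac peaks of 6087 bp in ACBI-1 and 4637 bp in DMSO, so the peak was wider after ACBI-1. The broadest domain of the tract held neither factor: ACBI-1 peaks covered 94.6% of a DMSO peak of 13405 bp (128971043 to 128984447) at 229.4 kb, and the widest of them measured 10070 bp.

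Past the tract, H3K27ac was sparse in both conditions and more so after ACBI-1. The longest run without a peak measured 273.7 kb in ACBI-1, from 367.4 to 641.1 kb, while the longest in DMSO downstream of MYC measured 131.4 kb, from 1990.5 to 2121.9 kb. Between 500 kb and 1 Mb there were 3 ACBI-1 peaks, of 608, 1311 and 841 bp, against 14 DMSO peaks, which covered 2.8 kb in ACBI-1 and 10.7 kb in DMSO. Of the DMSO peaks 11 were lost, near the 9.59 at the rates for their widths, and the widest of these measured 1859 bp (129668767 to 129670625) and lay 561 bp from an ACBI-1 peak.

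RUNX1 had 3 peaks in that sparse part and BRG1 none. A RUNX1 peak of 379 bp at 577.8 kb met a DMSO H3K27ac peak of just 200 bp and lay 63102 bp from the nearest ACBI-1 peak. The others, of 416 bp at 652.4 kb and 212 bp at 750.3 kb, lay in neither H3K27ac list.

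From 1000 to 1250 kb, DMSO cells had many narrow H3K27ac peaks that were not called after ACBI-1. The interval held 7 ACBI-1 peaks and 41 DMSO peaks, and 36 of the DMSO peaks were lost (87.8%, 73.8 to 95.9), where 28.6 would be lost at the rates for their widths. Covered length was 5.0 kb in ACBI-1 and 32.9 kb in DMSO, a ratio of 0.152. A ratio at or below that was found in 15 (0.757%) of the 1981 other stretches of 250 kb, and this interval too was singled out after its value was seen. The widest DMSO peak there, of 4128 bp (129888052 to 129892179), met an ACBI-1 peak of 1571 bp. RUNX1 had 1 peak in the interval, of 399 bp at 1138.7 kb: DMSO H3K27ac covered 339 bp of it, and the nearest ACBI-1 peak lay 2237 bp away.

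The block around the NOTCH-responsive enhancer spanned 349.3 kb. Its widest domain, at the enhancer position, was nearly all covered after ACBI-1, while the block as a whole had fewer peaks and less covered length. It held 45 ACBI-1 peaks and 73 DMSO peaks, which covered 94.5 kb in ACBI-1 and 165.3 kb in DMSO. Of the DMSO peaks 45 were lost, where 36.7 would be lost at the rates for their widths, and 5 ACBI-1 peaks were gained. ACBI-1 peaks covered 52.2% of the DMSO-acetylated length of the block.

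At the enhancer position stood the widest H3K27ac peak of the window in DMSO, of 21385 bp (130174343 to 130195727). ACBI-1 peaks covered 20433 bp (95.5%) of it. Of the length of all DMSO peaks of 10 kb or more, they covered 78.4% in the window (6 peaks) and 79.2% outside (964 peaks). The ACBI-1 peaks at this domain were one of 8091 bp (130174331 to 130182421) over the enhancer position and one of 17193 bp (130183374 to 130200566) beyond it, the widest in ACBI-1. RUNX1 peaks of 198 bp (130179613 to 130179810) and 712 bp (130180135 to 130180846) lay at the position, which was used here only to about 10 kb. Another, of 834 bp, lay 12.1 kb past 130.18 Mb, and all 3 were wholly within H3K27ac in both conditions. BRG1 had no peak in that domain. Its nearest, of 343 bp (130201177 to 130201519), lay 21.3 kb past 130.18 Mb inside a RUNX1 peak of 711 bp. There H3K27ac covered 282 bp of the BRG1 peak in ACBI-1 and all of it in DMSO, within a DMSO peak of 7487 bp of which ACBI-1 peaks covered 6220 bp.

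**Figure D3:**
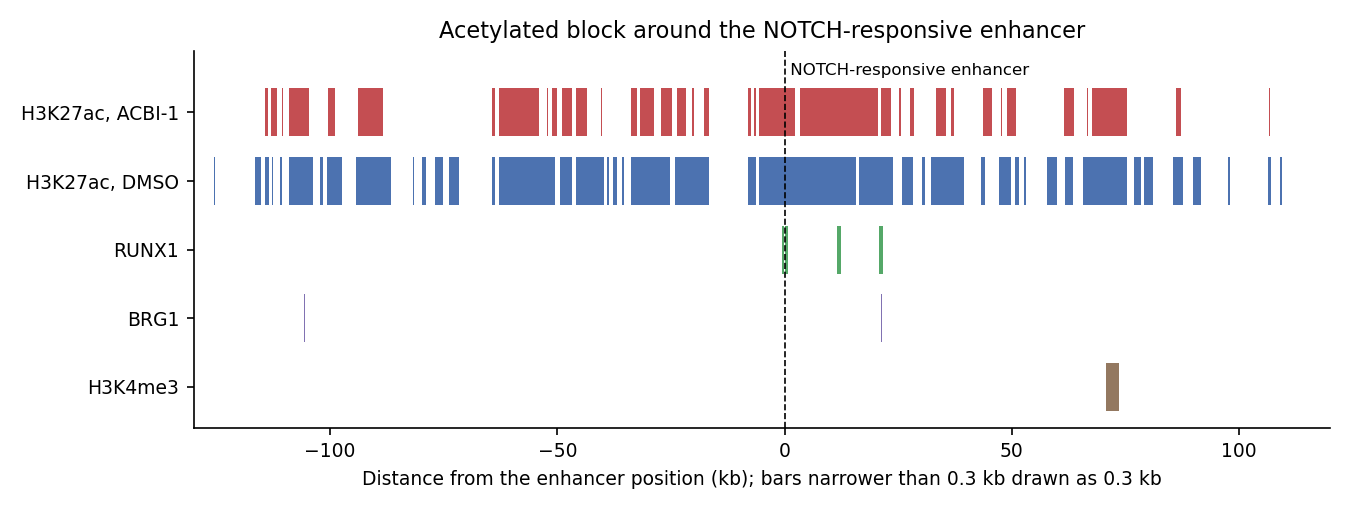
Peaks of the 5 lists around the NOTCH-responsive enhancer, by distance from its position (kb; dashed line). RUNX1 peaks lie at the position, itself approximate, within a domain that both H3K27ac rows cover, the DMSO peak of 21385 bp being split in 2 in ACBI-1, and the nearest BRG1 peak is at 21.3 kb.

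Elsewhere in the block, wide DMSO peaks were covered in part. ACBI-1 peaks covered 76.8% of a DMSO peak of 12289 bp (130117204 to 130129492) at 1375.0 kb, 6173 bp of one of 8570 bp at 1402.3 kb and 45.7% of one of 7576 bp at 1411.4 kb. A BRG1 peak of 229 bp (130074216 to 130074444) at 1326.0 kb, with no RUNX1 peak, lay in H3K27ac peaks of 4455 bp in ACBI-1 and 5200 bp in DMSO. A RUNX1 peak of 462 bp at 1253.4 kb lay wholly in DMSO H3K27ac and for 336 bp in ACBI-1 H3K27ac, where the DMSO peak of 4844 bp was covered for 1490 bp. The block also held an H3K4me3 peak of 2830 bp (130250842 to 130253671) at 1503.9 kb from MYC. H3K27ac covered it fully in both conditions, with peaks of 7605 bp in ACBI-1 and 9702 bp in DMSO, and neither RUNX1 nor BRG1 overlapped it.

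Beyond 1500 kb, 45 of 65 DMSO peaks were lost (69.2%, 56.6 to 80.1), against 57.5% for these widths over all sequences. Where 1 ACBI-1 peak met 1 DMSO peak, the ACBI-1 peak was the narrower in 14 of 15 pairs (93.3%, 68.05 to 99.8). Over all sequences 74.5% of such pairs had the narrower peak in ACBI-1, which lies within that interval, so the count does not set this part apart. Each of the 9 DMSO peaks with RUNX1 there met an ACBI-1 peak, where 20.6% of all DMSO peaks with RUNX1 were lost. These 9 measured 993 to 15763 bp, and wide peaks are seldom called lost. In the cluster from 1624.3 to 1661.8 kb, ACBI-1 peaks covered 1.9 kb and DMSO peaks 13.6 kb. Its BRG1 peak of 219 bp at 1650.5 kb overlapped a RUNX1 peak of 235 bp, within H3K27ac peaks of 808 bp in ACBI-1 and 2680 bp in DMSO. At 1679.6 kb a RUNX1 peak of 794 bp (130427522 to 130428315) lay in a DMSO domain of 12179 bp, of which ACBI-1 peaks covered 60.4%. At 1713.9 kb a RUNX1 peak of 177 bp lay in H3K27ac peaks of 1498 bp in ACBI-1 and 1335 bp in DMSO.

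The block from 1772.9 to 1868.0 kb held 6 RUNX1 and 2 BRG1 peaks, the most RUNX1 peaks of the 39 clusters. It held 9 ACBI-1 peaks and 17 DMSO peaks that covered 26.7 kb in ACBI-1 and 49.4 kb in DMSO, and 12 of the DMSO peaks were lost, near the 10.5 at the rates for their widths. Both BRG1 peaks, of 230 bp (130559068 to 130559297) and 165 bp (130566926 to 130567090), lay wholly inside RUNX1 peaks. They shared 1 H3K27ac domain, which measured 12075 bp (130558201 to 130570275) in ACBI-1 and 15730 bp (130555128 to 130570857) in DMSO. A RUNX1 peak of 259 bp at 1838.6 kb lay in H3K27ac peaks of 2421 bp in ACBI-1 and 5427 bp in DMSO. The last 3 RUNX1 peaks, of 947, 238 and 175 bp between 1855.7 and 1857.5 kb, lay in an ACBI-1 peak of 4476 bp and a DMSO peak of 15763 bp, which was the widest DMSO peak after the one at the enhancer. ACBI-1 peaks covered 57.9% of it, the least among the 6 DMSO peaks of 10 kb or more.

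**Figure D4:**
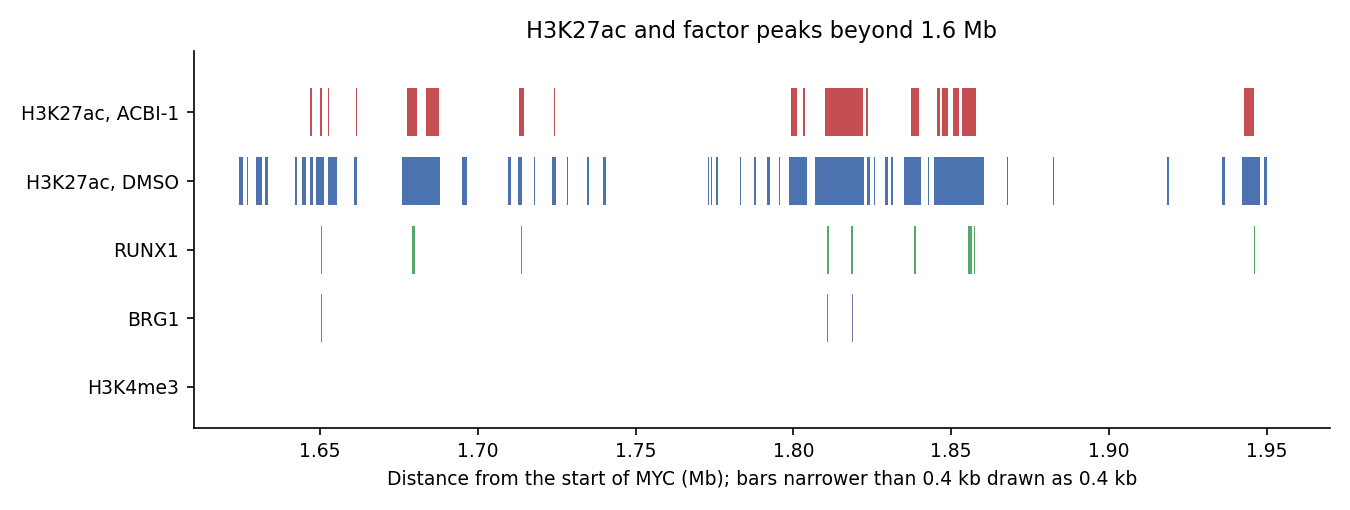
Peaks of the 5 lists from the cluster at 1624.3 kb to the one that ends at 1950.1 kb, by distance from the start of MYC (Mb). Each of the RUNX1 and BRG1 peaks shown lies on an H3K27ac peak in both conditions, H3K4me3 has no peak, and the ACBI-1 domains are narrower than the DMSO domains at most of them.

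Toward the far edge the sites were isolated. A RUNX1 peak of 465 bp at 1946.1 kb was covered for 229 bp by an ACBI-1 peak of 3221 bp and wholly by a DMSO peak of 5984 bp. At 2164.3 kb a BRG1 peak of 228 bp overlapped a RUNX1 peak of 230 bp by 160 bp, within H3K27ac peaks of 960 bp in ACBI-1 and 2057 bp in DMSO. At 2203.7 kb a BRG1 peak of 502 bp (130951784 to 130952285) lay in a RUNX1 peak of 770 bp and an H3K4me3 peak of 1721 bp (130950871 to 130952591). H3K27ac there was a peak of 212 bp in ACBI-1 and of 993 bp in DMSO, so 21.3% of the DMSO peak was covered, less than at any other DMSO peak with BRG1 in the window. A RUNX1 peak of 369 bp at 2149.7 kb lay in neither H3K27ac list.

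Counted over the window, most factor peaks lay in H3K27ac in both conditions. All 9 BRG1 peaks overlapped H3K27ac in both conditions, and 7 of the 9 overlapped RUNX1, beside 80.7% of BRG1 peaks elsewhere. Of BRG1 peaks outside the window 70.6% were on ACBI-1 H3K27ac and 91.9% on DMSO H3K27ac. The exact 95% interval for 9 of 9 reaches down to 66.4%, so the count does not set the window apart. Of the 29 RUNX1 peaks 23 overlapped H3K27ac in ACBI-1 and 26 in DMSO (79.3% in ACBI-1 and 89.7% in DMSO), against 64.3% in ACBI-1 and 83.8% in DMSO outside, and these values lie within the window's intervals (60.3 to 92.0 in ACBI-1, 72.7 to 97.8 in DMSO). The window was poorer in factor sites per acetylated peak than the rest. Of its 256 DMSO peaks 17 held RUNX1 (6.64%, 3.92 to 10.4) against 14.5% (14.2 to 14.7) outside, and 8 held BRG1 (3.12%, 1.36 to 6.06) against 6.88% (6.72 to 7.05). It was also poorer in H3K4me3, which 1.56% of its DMSO peaks held against 11.7% outside. Outside the window 43.1% of RUNX1 and 61.9% of BRG1 peaks lay on H3K4me3, against 17.2% and 22.2% in it. Whether this bears on the lower factor shares was not tested.

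Of the 17 DMSO peaks with RUNX1, 2 were lost (11.8%, 1.46 to 36.4), those at 577.9 and 1138.5 kb, against 20.6% of all DMSO peaks with RUNX1. Of the 8 with BRG1, 0 were lost, which allows a share of up to 37.5% by a floor of 3 counts, and 14.9% were lost outside the window. These peaks were wide, with medians of 5125 bp for those with RUNX1 and 5162.5 bp for those with BRG1, and wide peaks are seldom called lost: at the rates for their widths 3.34 and 1.09 would be lost. Of the 238 DMSO peaks with neither factor 137 were lost (57.6%, 51.0 to 63.9). Loss varied with width in the window much as it did outside. Under 500 bp 60 of 71 DMSO peaks were lost (84.5%, against 86.2% outside), from 500 bp to 2 kb 76 of 126 (60.3%, against 58.7%), and of 2 kb or more 3 of 59 (5.08%, against 9.81%).

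The 10 widest lost peaks lay beyond 500 kb from MYC, as did 118 of all 139 lost peaks and 168 of all 256 DMSO peaks. The tenth, of 1683 bp, was barely wider than the lost peak of 1680 bp just past MYC. None of the 10 held RUNX1, BRG1 or H3K4me3. Of all DMSO peaks of the window 6.64% held RUNX1, 3.12% BRG1 and 1.56% H3K4me3, so this does not set the 10 apart. The first measured 2251 bp (130106103 to 130108353) at 1358.9 kb and lay 7194 bp from the nearest ACBI-1 peak, and the second 2236 bp (130237709 to 130239944) at 1490.5 kb. Over all 139 lost peaks the nearest ACBI-1 peak was a median of 5728 bp away. For 23 it was within 1 kb and for 52 more than 10 kb off, the farthest being 118772 bp.

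Gained peaks were small and lay close to DMSO peaks. The 20 measured 169 to 1278 bp with a median of 515.5 bp, where all 159 ACBI-1 peaks of the window had a median of 861 bp. Of the 20, 15 lay within 1 kb of a DMSO peak. Narrow peaks miss an overlap more easily, and widths and distances of gained peaks outside the window are not given here. From 50 to 500 kb downstream of MYC lay 13 of them, as did 81 of all 159 ACBI-1 peaks. The share gained in that part was 16.05% (8.83 to 25.9), against 21.4% over all sequences, and DMSO peaks covered 34.0% of its length. None held RUNX1, BRG1 or H3K4me3 (0 of 20, which allows up to 15.0% by a floor of 3 counts), beside 21 of all 159 ACBI-1 peaks of the window (13.2%). The widest, of 1278 bp (128935125 to 128936402) at 187.4 kb, was 435 bp from a DMSO peak, and the next, of 1263 bp (128818456 to 128819718) at 70.8 kb, was the most isolated at 2002 bp.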

How the data were processed

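CUT&RUN peak lists of 5 libraries of DND-41 cells were used. The 4 control libraries (IgG or input) were not used here. Target and treatment were read from the titles, and each combination had 1 library. Per the submitters' processing notes the build was hg19 and the callers were MACS2 and SEACR. Per the file headers, RUNX1 peaks came from MACS2 and both H3K27ac lists are broad peaks called with the same stated q threshold. The deposited values are positions, with other settings not given in the sources used here. Lists of different targets are therefore not comparable in number.

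Overlap meant at least 1 bp. Intervals of shares are exact (Clopper-Pearson, 95%, over peaks) and cover counting error only, since neighbouring peaks are not independent. The limit given for a share of 0 is instead 3 counts of the total. Loss rates for given widths came from 10 width bins of about equal size over all DMSO peaks. Positions are inclusive and count from 1. Overlaps were computed in Python 3.11.15 (numpy 2.4.6, pandas 2.3.3, scipy 1.17.1) and checked against bedtools 2.31.1, with 0 peaks differing. Plots used matplotlib 3.10.9. Peaks were named by rule: all factor and H3K4me3 peaks, H3K27ac peaks at MYC, with a factor or within 20 kb of the enhancer position, and the 10 widest of each list and call. The members, lists and rules were chosen with earlier results of these data known. Gene order came from a RefSeq table of GRCh38, whose coordinates were not used. The alternatives were other overlap rules, a minimum width of 500 bp, merged peaks, a window shortened by 200 kb at each end, equal numbers of the widest peaks, and gaps of 5 and 20 kb for clusters.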

Additional observations from a re-analysis of the deposited data

How the results depend on the processing

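Of 39 values under other settings, 25 stayed close to the reported one (within its interval for a share, 10% for a ratio, 1.5 times for a count) and 14 did not. With at least 50% of a peak covered, 73.1% of DMSO peaks in the window were lost, 22.6% of ACBI-1 peaks were gained and 0.781% of DMSO peaks held RUNX1. The share lost was then 47.7% from 50 to 500 kb and 86.3% beyond. Accepting a peak within 1 kb gave 45.3% lost, 3.15% gained and 10.5% lost from 50 to 500 kb. Equal numbers of the widest peaks gave 39.4% lost, with 14.3% from 50 to 500 kb and 54.3% beyond. With H3K27ac peaks of at least 500 bp, 62.4% were lost beyond 500 kb. The share lost was lower from 50 to 500 kb than beyond 500 kb in each setting run on both. Shares over all sequences under these settings are not given here. The number of clusters was 64 with gaps of up to 5 kb and 19 with 20 kb. No paired analysis was possible because each group has 1 library. Depth is unknown, so its part in the difference between the H3K27ac lists was not tested.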
